A study of Mus musculus with 4 samples.

Results

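Fibroblast growth factors (FGFs), their receptors and the Sprouty and Spred inhibitors were examined in mouse skin epithelial cells before and after long culture. The genes were chosen by name alone: every array probe named Fgf with a number, Fgfr1 to Fgfr4, Fgfrl1, Fgfbp1, Spry1 to Spry4 or Spred1 to Spred3 was taken, control spots aside. This gave 35 genes of 31896 on the array, covered by 52 of 39429 probes and 88 of 43020 spots. Of the 35 genes, 18 had a probe bright enough to be tested, among 17376 genes tested in all.

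The 15p cells were CD49f+ CD34+ cells sorted after the last of 15 serial cultures of 10 days each with Wnt-3a on collagen. The 0p cells were CD49f+ CD34+ cells sorted from primary skin epithelial cells, and both came from adult C3H/HeN mice. Wnt-3a is given in the labels as treatment for each of the RNAs, although the culture protocol names it only for the passages. RNA of both cells was hybridised together on 4 two-colour arrays: each of 2 biological replicates was run once with 15p in Cy5 and 0p in Cy3, and once with the dyes exchanged. Whether the replicates came from separate mice is not stated, so p-values speak only for these 2 replicates. The spread behind them is not each gene's own alone. The limma software draws it mostly from all genes tested (prior degrees of freedom 8.88, residual 1). Each replicate lay on a slide of its own, so replicate and slide cannot be told apart.

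FGFs are secreted proteins that bind receptor tyrosine kinases at the cell surface together with heparan sulfate chains. The receptors signal through the adaptor Frs2 to Ras and Erk, and Sprouty and Spred proteins, several of them induced by the same signal, damp the Ras to Erk step. In skin, ligands made by the dermis such as Fgf7 and Fgf10 act on a splice form of Fgfr2 in keratinocytes, and Fgf5 ends the growth phase of the hair follicle. A smaller set, Fgf11 to Fgf14, stays inside the cell and does not act through these receptors, while Fgf15, Fgf21 and Fgf23 act as hormones.

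Several genes carry probes that disagreed about whether the gene was above background, so the sequences are shown first. Probes are given 5′ to 3′ with their mm9 positions, which are those in the files. Capitals mark the longest run made of only 2 different letters, which is set against the whole array after the detection values. The first set contrasts the Fgfr1 probe that stood for the gene, rich in T and G (chr8:26685820-26685879, plus strand, its middle 30 bases shown), with probes from the end of the kinase domain coding sequence of Fgfr1 (chr8:26684061-26684120, plus), Fgfr3 (chr5:34077856-34078090, plus, across an intron) and Fgfr4 (chr13:55269212-55269271, plus).
Fgfr1, T and G run: TTTTGTTTTTTGTTTGTTTGTTTGGTTGGT
Fgfr1, kinase: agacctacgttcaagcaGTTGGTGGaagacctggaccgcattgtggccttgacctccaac
Fgfr3, kinase: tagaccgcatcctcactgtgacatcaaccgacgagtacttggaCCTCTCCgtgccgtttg
Fgfr4, kinase: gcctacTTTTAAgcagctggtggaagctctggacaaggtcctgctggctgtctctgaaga
The second set holds ligand and inhibitor probes whose detection is described below: both Fgf22 probes, of which the longer one shown is coding sequence (chr10:79219513-79219572, plus) and the other is not known to be (chr10:79221282-79221341, plus, 30 bases); both Fgf23 probes (chr6:127030758-127030817 and chr6:127031289-127031348, plus, 30 bases each); the only Fgf21 probe (chr7:52869305-52869364, minus, 30 bases); and the only Spry2 probe (chr14:106291845-106291904, minus, 30 bases).
Fgf22, coding: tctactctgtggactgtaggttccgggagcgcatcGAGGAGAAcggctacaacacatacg
Fgf22, other probe: tgagtaggtgTATTTTAAATAgctttccag
Fgf23, CA repeat: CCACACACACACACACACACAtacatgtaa
Fgf23, other probe: aggttgacttgTAATATATTctaagcgaat
Fgf21: atttatcTTATTTATTTATTTTAgtttttt
Spry2: gagaggCTTTTCTTTCTCTTTTCCTTTTTT

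Detection came before any comparison. A probe counted as above background on an array when the scanner software flagged at least 0.5 of its spots as well above background. Of the 35 genes, 17 were above background on all 4 arrays in both RNAs, Fgf8 was so on all 4 in 15p RNA and on 3 in 0p RNA, 7 were above on some arrays, and 10 were above on none. Between 55% and 64.8% of all probes were above background in 15p RNA, and between 56.6% and 68.1% in 0p RNA. In RNA from bulk cells, fewer cells of a type and less RNA per cell cannot be told apart.

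**Figure D1:**
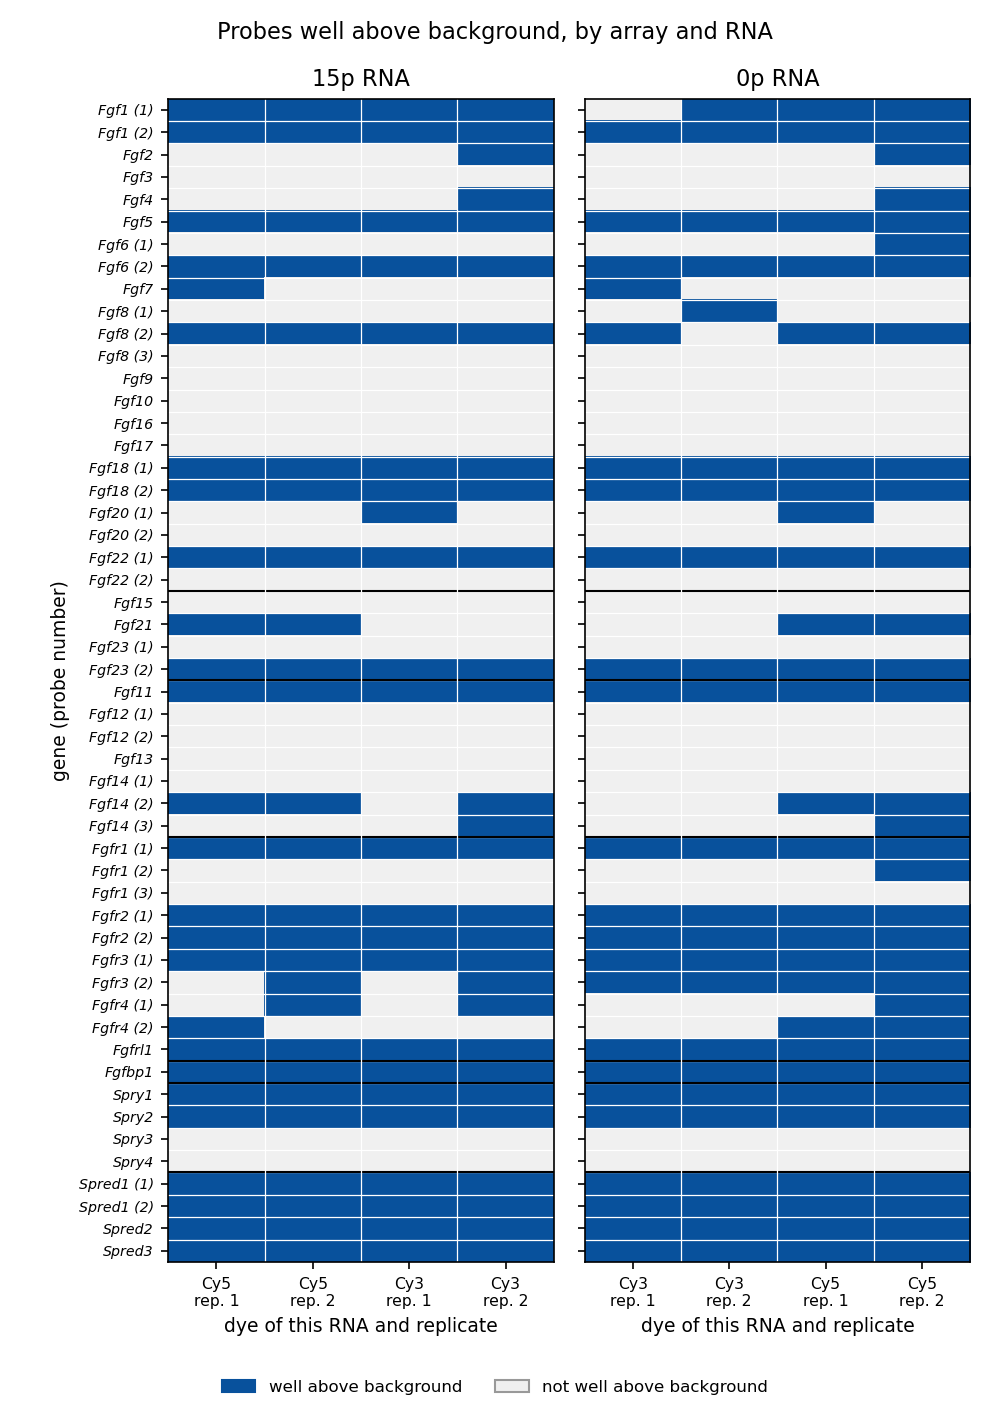
Detection of the 52 probes, 1 row a probe, on the 4 arrays in 15p RNA (left) and 0p RNA (right); dark cells are well above background, black lines part the roles. All Spred probes and the Fgfbp1, Spry1 and Spry2 probes were above background in every cell, and 10 genes had no dark cell. The Fgf21 row is dark wherever the RNA carried Cy5 and nowhere else, and the second Fgfr4 row is dark in 3 Cy5 cells and 0 Cy3 cells.

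Among the 15 secreted ligands, 6 passed the filter: Fgf1, Fgf5, Fgf6, Fgf8, Fgf18 and Fgf22. The dermal ligands were seldom above background by the software's flag. Fgf10 was above background on 0 arrays in either RNA, although its probe was printed 10 times on each array, and Fgf7 was above on 1 array in 15p RNA and on the same array in 0p RNA. Fgf2, a ligand of many stromal cells with a probe printed 10 times, was also above on 1 array in each RNA, as were Fgf4, an embryonic ligand, and Fgf20, a ligand of the hair placode. For Fgf2 and Fgf4 that array was the 15p-in-Cy3 array of replicate 2, which had the highest share of probes above background of the 4. Fgf3, Fgf9, Fgf16 and Fgf17 were above background on no array. Another measure was processed signal above the 95th percentile of the negative controls. By it Fgf7 and Fgf2 were above on 4 arrays in each RNA, and Fgf10 on 0.

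Of the hormone-like ligands, Fgf23 passed, Fgf21 was above background on 2 arrays in each RNA, and Fgf15, the gut hormone of bile acid control in mice, was above on none. Signals and ratios are listed for replicates 1 and 2 with 15p in Cy5, then for replicates 1 and 2 with 15p in Cy3. Fgf21, a hormone of the fasted liver, was above background on 4 of 4 arrays in Cy5 and on 0 of 4 in Cy3, whichever RNA carried the dye. Its processed signals were 19.0, 19.5, 3.18 and 5.63 in 15p RNA, against 7.26, 2.29, 11.1 and 10.2 in 0p RNA. The higher RNA on each array was thus the one in Cy5, and no ratio is given for this gene.

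Of the intracellular factors, which bind voltage-gated sodium channels, Fgf11 passed. Fgf12 and Fgf13 were above background on no array. Of 3 Fgf14 probes, the brightest was above on 3 arrays in 15p RNA and on 2 in 0p RNA, another on 1 in each, and the last on none. By dye, the brightest was above on 4 arrays in Cy5 and on 1 in Cy3.

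All receptors were above background on some array. Fgfr1, Fgfr2, Fgfr3 and Fgfrl1 passed the filter, and Fgfr4 did not. The Fgfr4 probes were above background on 2 and 1 arrays in 15p RNA and on 1 and 2 in 0p RNA. By dye, they were above on 2 and 3 arrays in Cy5 and on 1 and 0 in Cy3. The FGF carrier Fgfbp1 passed, as did Spry1, Spry2 and all 3 Spred genes, while Spry3 and Spry4 were above background on no array.

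Probes of one gene did not always pass together. In 5 genes (Fgf6, Fgf8, Fgf22, Fgf23 and Fgfr1) at least 1 probe was kept and another left out. The kinase probe of Fgfr1 was above background on 0 arrays in 15p RNA and on 1 in 0p RNA, with processed signals of 5.79, 4.14, 5.81 and 8.39 in 15p RNA, against 6.95, 3.94, 4.91 and 15.7 in 0p RNA. The T and G run probe of the same gene was above on every array, and the third Fgfr1 probe on none. The coding probe of Fgf22 and the second Fgf23 probe were above background on no array, while the other Fgf22 probe and the CA repeat probe of Fgf23 were above on all 4 in both RNAs. One of the Fgf6 probes was above on all 4 in both RNAs and the other on 0 in 15p RNA and 1 in 0p RNA. The values given for these 5 genes therefore rest on 1 probe each that the gene's other probes did not match in detection.

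The longest run of only 2 letters had a median length of 9 bases in the 52 probes and 8 in all 39429, and 4 of the 52 (7.69%) held a run of 20 or more bases, against 1.44% of all. These 4 were the Fgfr1 probe with 46 bases, the Spry2 probe with 24, the Fgf23 probe with 21 and an Fgfr4 probe with 20. Over the whole array, 78.3% of the probes with such a run passed the filter, against 54.6% of the others. Of the 4, all but the Fgfr4 probe passed. The part of these runs in the signals was not tested.

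No gene of the family passed the test of a difference between 15p and 0p cells. Of 18 tested, 0 had an adjusted p under 0.05 (limma on the 2 replicate means, Benjamini-Hochberg over 17376 genes), and the lowest adjusted p was 0.749; over all genes tested the share called was 0%. Without adjustment 0 of the 18 had p under 0.05, against 6.31% of all genes. The mean log2 ratios of 15p over 0p ran from -0.087 to 0.15 with 10 above 0 and 8 below, and their median was 0.020, against 0.0025 over all genes. The 95% confidence intervals together covered folds of 0.86 to 1.24. These bounds belong to the main fit and do not cover the choice of processing. That fit adds an offset of 50 to each corrected intensity, which draws the ratios of dim probes towards 0. The tested probes of Fgf8, Fgf11, Spred3 and Spry2 had processed signals near or below 50 on every array. On the software's processed signals the mean log2 ratio was 0.295 for Spry2 and 0.25 for Fgf8, above their upper bounds of 0.19 and 0.20 here. Without the 15p-in-Cy5 array of replicate 1, 3 of the 18 were called: Fgf5 at -0.18 (adjusted p = 0.0312, limma), Spred2 at 0.25 (adjusted p = 0.00116, limma) and Spry1 at -0.21 (adjusted p = 0.00981, limma). In that fit 18.0% of all genes were called, and the array left alone in its dye orientation added nothing to the estimated spread.

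**Figure D2:**
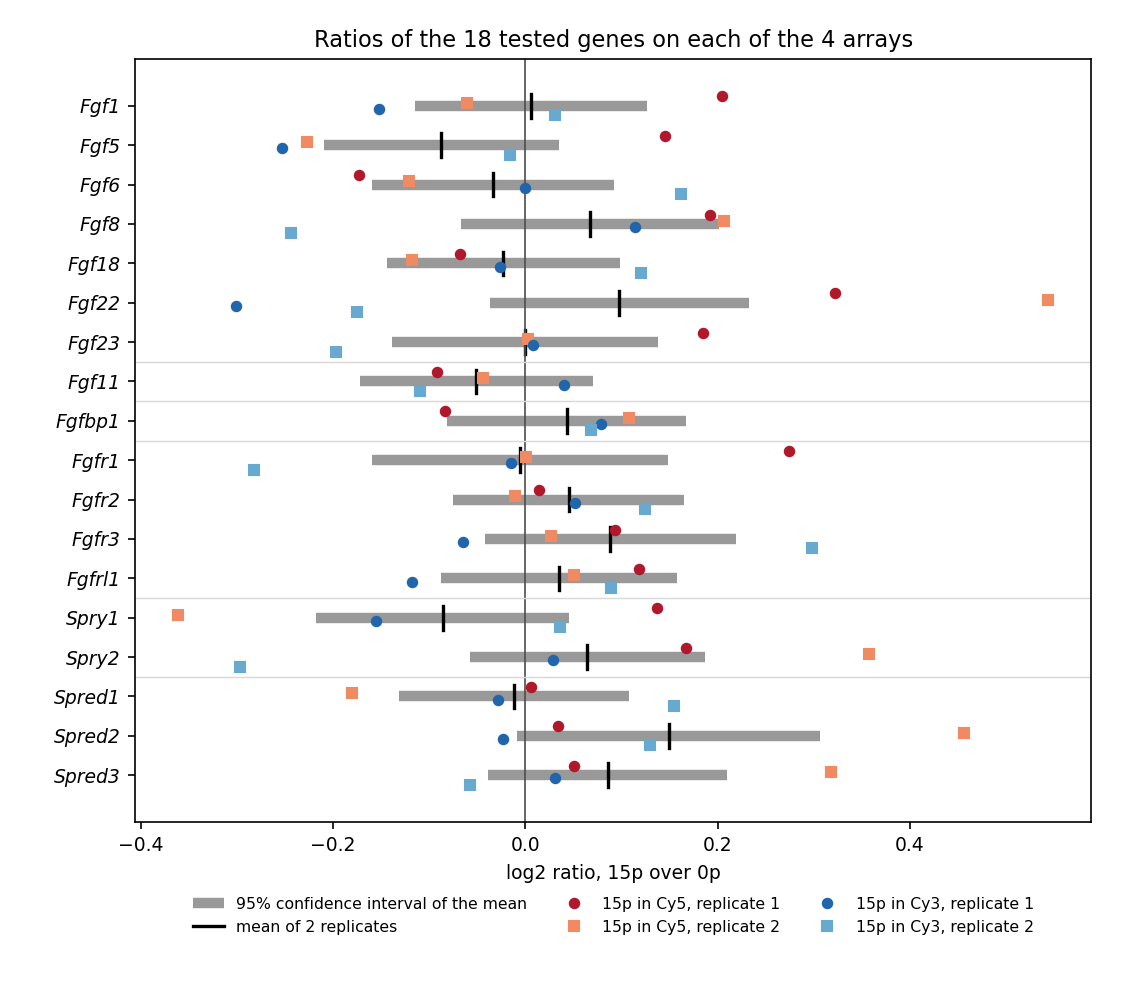
Log2 ratios of 15p over 0p (x axis) for the 18 tested genes, with 1 point for each of the 4 arrays, a black tick at the mean of the 2 replicates and a grey bar for its 95% confidence interval (limma). All 18 grey bars span 0, and the points of single arrays reach from -0.36 for Spry1 to 0.54 for Fgf22, outside those genes' own bars.

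Single arrays differed more than the means. None of the 18 genes had the same sign on all 4 arrays, against 6.78% of all genes; 9 were positive on 3 arrays, 5 on 2 and 4 on 1. Over all genes, the ratios of the 2 arrays of a pair were negatively correlated once both were turned to 15p over 0p (r = -0.55 in replicate 1 and -0.40 in replicate 2, across genes, which share arrays and are not independent), and those of the 2 replicate means had r = 0.089. The SD between the 18 genes was 0.24 on the 15p-in-Cy5 array of replicate 2 and 0.11 to 0.17 on the others. That array held the largest ratio in size for 7 of the 18 (38.9%), against 56.8% of all genes. For Fgf8, Fgf11, Fgf18, Fgf23, Fgfr1, Fgfr2 and Fgfr3 the 15p-in-Cy3 array of replicate 2 held it. The share of all genes for that second array is not given here.

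Among the secreted ligands, Fgf22, made by keratinocytes of the hair follicle, had the widest spread. With 15p in Cy5 its log2 ratios of 15p over 0p were 0.32 in replicate 1 and 0.54 in replicate 2, against -0.30 and -0.18 with 15p in Cy3. The processed signals behind them were 102.8, 124.1, 78.0 and 64.5 in 15p RNA, against 73.2, 66.8, 104.6 and 81.4 in 0p RNA. Whichever RNA was in Cy5 was the brighter, on each of the 4 arrays. The dye-swapped pairs averaged to 0.098 ± 0.12 (SD, n = 2), with a 95% interval of -0.037 to 0.23. Both arrays of one dye orientation had one sign and both of the other the opposite sign for 2 of the 18 genes (11.1%), Fgf22 and Fgfr1, both higher in Cy5, against 32.3% of all genes. By the mean of each orientation, 11 of the 18 (61.1%) had opposite signs, 8 of them higher and 3 (Fgf6, Fgf18 and Spred1) lower in Cy5, against 66.4% of all genes.

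**Figure D3:**
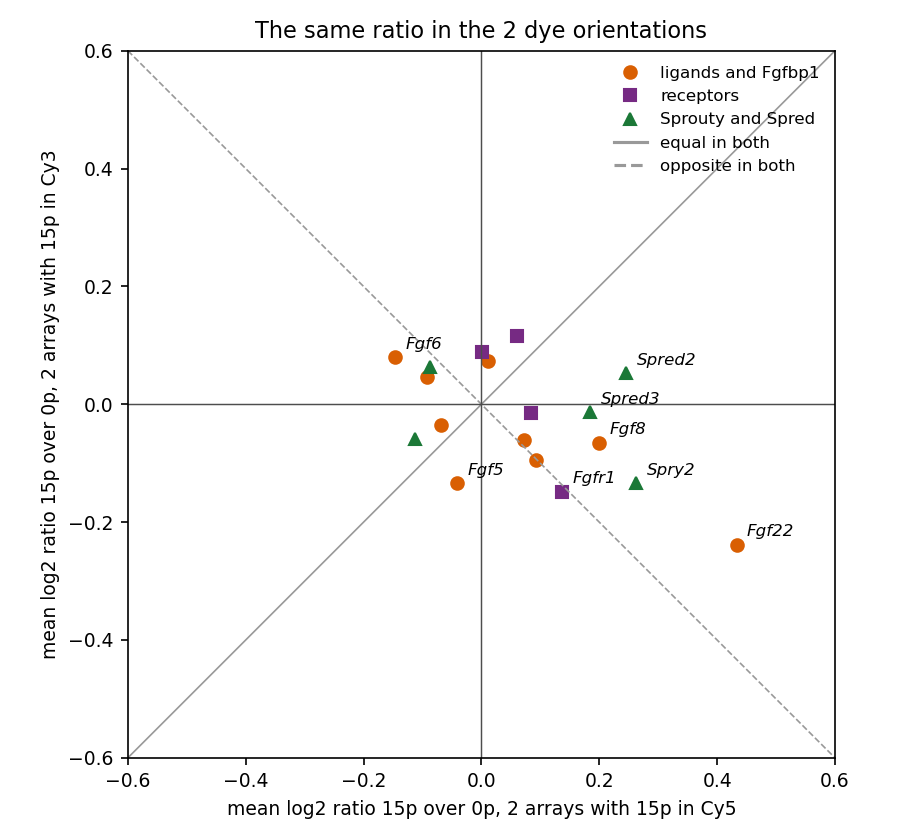
Mean log2 ratio of 15p over 0p on the 2 arrays with 15p in Cy5 (x axis) and on the 2 with 15p in Cy3 (y axis), 1 point a gene, shaped by role. A gene changed alike in both orientations would lie on the solid line; 11 of the 18 points have coordinates of opposite sign, with Fgf22 (0.43 and -0.24) farthest out and Fgf23 (0.093 and -0.094) and Fgfr1 (0.14 and -0.15) close to the dashed line of opposite values.

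Fgf5, the brake on hair growth, had ratios of 0.15 and -0.23 with 15p in Cy5 and -0.25 and -0.016 with 15p in Cy3. Its mean was -0.087 ± 0.048 (SD, n = 2), the lowest of the 18 genes, with an interval of -0.21 to 0.035. By these ratios it was lower in 15p RNA on 3 of 4 arrays, and its processed signals overlapped: 256.0, 263.9, 218.4 and 254.4 in 15p RNA, against 235.3, 329.1, 260.8 and 249.8 in 0p RNA. Without the 15p-in-Cy5 array of replicate 2 the mean was 0.0056, and without both arrays of replicate 2 it was -0.054.

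Fgf8, a ligand of embryonic patterning, had ratios of 0.19 and 0.21 with 15p in Cy5 and 0.11 and -0.24 with 15p in Cy3. The mean was 0.067 ± 0.12 (SD, n = 2), and the probe was above background on 4 arrays in 15p RNA and on 3 in 0p RNA. Neither of the other Fgf8 probes passed the filter. Fgf1, which binds every FGF receptor, had ratios of 0.20 and -0.061 with 15p in Cy5 and -0.15 and 0.031 with 15p in Cy3. Both Fgf1 probes were kept, and the dimmer averaged -0.024 ± 0.038 (SD, n = 2). The mean of the brighter was 0.0056 ± 0.029 (SD, n = 2), with an interval of -0.12 to 0.13.

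Fgf18, a ligand of the resting hair follicle, had ratios of -0.068 and -0.12 with 15p in Cy5 and -0.027 and 0.12 with 15p in Cy3, and a mean of -0.023 ± 0.034 (SD, n = 2). Its probes overlap in 26 bases, so they are not independent readings, and their means differed by 0.017.
Fgf18, shared by both probes: ACGAGGAAACTGCGAGAAACCAAAGT
Fgf6, known from muscle, had ratios of -0.17 and -0.12 with 15p in Cy5 and -0.00070 and 0.16 with 15p in Cy3, with a mean of -0.033 ± 0.076 (SD, n = 2). By these ratios both Fgf18 and Fgf6 were lower in 15p RNA on 3 of 4 arrays and higher on the 15p-in-Cy3 array of replicate 2. On the replicate 1 array of that orientation, though, the processed signals were higher in 15p RNA. They were 64.71 against 58.97 for Fgf18 and 138.9 against 138.1 for Fgf6.

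Fgf23, the bone hormone of phosphate balance, was represented by its CA repeat probe. The ratios were 0.18 and 0.0025 where 15p was in Cy5 and 0.0082 and -0.20 with 15p in Cy3, and the replicate means, 0.096 and -0.097, nearly cancelled to -0.00040 ± 0.14 (SD, n = 2). Fgf11, the intracellular factor that passed, had ratios of -0.092 and -0.045 with 15p in Cy5 and 0.040 and -0.11 with 15p in Cy3. It was lower in 15p RNA on 3 of 4 arrays, with a mean of -0.051 ± 0.036 (SD, n = 2) and an interval of -0.17 to 0.070.

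Fgfbp1, a secreted carrier that frees FGFs from the matrix, differed least between single arrays after Fgfr2 and Fgf11. Its processed signals were 1884, 2598, 1952 and 2188 in 15p RNA, against 2012, 2444, 1837 and 2077 in 0p RNA. Its log2 ratios of 15p over 0p were -0.083 and 0.11 where 15p was in Cy5 and 0.079 and 0.068 with 15p in Cy3. The range in 15p RNA overlapped that in 0p RNA, and the mean ratio was 0.043 ± 0.064 (SD, n = 2), with an interval of -0.081 to 0.17.

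The receptors had mean ratios between -0.0056 and 0.088, and none passed the test. Fgfr2, the keratinocyte receptor of the dermal ligands, gave processed signals of 145.9, 154.4, 154.9 and 147.4 in 15p RNA, against 146.7, 159.4, 150.6 and 133.2 in 0p RNA. The 2 ranges overlapped almost wholly. Its ratios were 0.014 and -0.011 where 15p was in Cy5 and 0.051 and 0.12 with 15p in Cy3, the narrowest span over arrays of the 18 genes (0.14). The mean was 0.045 ± 0.017 (SD, n = 2), and the interval, -0.075 to 0.17, leaves room for a fold of 0.949 to 1.12. The second Fgfr2 probe, printed 10 times on each array, was above background throughout, and its mean of -0.039 ± 0.019 (SD, n = 2) was opposite in sign to the first. The probes share 42 bases, of which 30 are shown.
Fgfr2, shared by both probes: CTGCCTCAGTATCCACACATAAACGGCAGT
Both probes lie at the end of the coding sequence, away from the exons that set the ligand-binding splice forms, so they do not tell those forms apart.

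Fgfr3, which restrains growth in cartilage and is also made by keratinocytes, had ratios of 0.094 and 0.027 with 15p in Cy5 and -0.065 and 0.30 with 15p in Cy3. The mean was 0.088 ± 0.10 (SD, n = 2), the highest of the receptors, and without the 15p-in-Cy3 array of replicate 2 it was -0.0022. Its kinase probe, above background on 2 arrays in 15p RNA and on 4 in 0p RNA, had a mean of -0.061 ± 0.0033 (SD, n = 2), so the probes of this gene differed in sign. Fgfrl1, a receptor without a kinase domain, had ratios of 0.12 and 0.051 with 15p in Cy5 and -0.12 and 0.090 with 15p in Cy3. Its mean was 0.035 ± 0.049 (SD, n = 2).

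Fgfr1, a receptor of many mesenchymal cells, had ratios of 0.27 and 0.00014 with 15p in Cy5 and -0.015 and -0.28 with 15p in Cy3. The replicate means lay on opposite sides of 0, at 0.13 and -0.14, and the overall mean was -0.0056 ± 0.19 (SD, n = 2), with an interval of -0.16 to 0.15. These values belong to the T and G run probe.

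The Sprouty genes went opposite ways on the array that deviated most. Spry1 gave processed signals of 978.5, 980.3, 891.5 and 1002 in 15p RNA, against 889.9, 1261, 984.9 and 986.8 in 0p RNA. Its ratios were 0.14 and -0.36 where 15p was in Cy5 and -0.16 and 0.036 with 15p in Cy3, and they were positive on 2 arrays and negative on 2. The mean was -0.086 ± 0.11 (SD, n = 2), with an interval of -0.22 to 0.046, and it was 0.039 without the 15p-in-Cy5 array of replicate 2. Spry2 had ratios of 0.17 and 0.36 with 15p in Cy5 and 0.029 and -0.30 with 15p in Cy3, a mean of 0.064 ± 0.048 (SD, n = 2). Its processed signals were 39.1, 48.8, 30.0 and 37.0 in 15p RNA, against 28.2, 22.8, 27.85 and 52.4 in 0p RNA.

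Spred2, which blocks the activation of Raf by Ras, had the highest mean of the 18 genes in the main fit. Its mean on the processed signals was 0.168, below Spry2 at 0.295 and Fgf8 at 0.25. Its processed signals were 428.8, 809.7, 402.6 and 467.7 in 15p RNA, against 414.2, 562.8, 411.6 and 427.8 in 0p RNA. The 15p-in-Cy5 array of replicate 2 stood apart, and it was the brightest for both RNAs. Its ratios came to 0.034 and 0.46 with 15p in Cy5 and -0.023 and 0.13 with 15p in Cy3. The replicate means were 0.0055 and 0.29, which gave 0.15 ± 0.20 (SD, n = 2), a fold of 1.11, with an interval of -0.0082 to 0.31 and an adjusted p of 0.749 (limma). Without the 15p-in-Cy5 array of replicate 2 the mean was 0.044.

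Spred3, a family member without a functional Kit-binding domain, had ratios of 0.050 and 0.32 with 15p in Cy5 and 0.031 and -0.058 with 15p in Cy3, and a mean of 0.085 ± 0.064 (SD, n = 2). Without the same array it was 0.018. Spred1, mutated in people with Legius syndrome, had ratios of 0.0061 and -0.18 with 15p in Cy5 and -0.028 and 0.15 with 15p in Cy3. Its mean was -0.012 ± 0.0012 (SD, n = 2), where the small SD hides that the single arrays spanned 0.34. The second Spred1 probe averaged 0.13 ± 0.13 (SD, n = 2), with 0.45 on the 15p-in-Cy5 array of replicate 2, and the probes differed by 0.14. All 3 Spred genes had their largest ratio in size on that array, and so did Spry1, Spry2 and 56.8% of all genes.

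Genes that work with the FGFs were examined in 3 lists, and 0 of their tested genes were called. Of 21 listed cofactors and co-receptors, 17 were tested, with 10 ratios above 0 and 7 below and a median of 0.018. The largest in size were Sdc4 at 0.16 ± 0.19, Hspg2 at 0.13 ± 0.056, Sdc3 at 0.12 ± 0.065 and Gpc4 at 0.11 ± 0.17 (mean log2 ratio ± SD, n = 2 each). These encode heparan sulfate proteoglycans: syndecans, perlecan and a glypican. Hspg2 was the one of them above 0 on every array, at 0.021 and 0.24 with 15p in Cy5 and 0.16 and 0.10 with 15p in Cy3. Kl, the Klotho co-receptor that Fgf23 needs, was above background on no array.

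Of 26 listed adaptors and kinases, 25 were tested, with 10 above 0 and 15 below and a median of -0.050. The adaptor Crk was lowest at -0.275 ± 0.22 (SD, n = 2), and its ratio was -0.82 on the 15p-in-Cy5 array of replicate 2, against -0.26 on the replicate 1 array of that orientation and 0.015 and -0.043 with 15p in Cy3. Pik3ca, the catalytic subunit of a phosphoinositide kinase, averaged -0.165 ± 0.15. It was below 0 on every array, at -0.090 and -0.41 with 15p in Cy5 and -0.023 and -0.13 with 15p in Cy3. The phospholipase Plcg1 averaged -0.162 ± 0.31, and the ubiquitin ligase Cbl, which marks active receptors for removal, -0.162 ± 0.31 (SD, n = 2 each). Each of these 4, named for the size of its mean, had its most negative value on the same array as Crk. That array held the largest ratio in size for 56.8% of all genes.

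All 18 feedback inhibitors and target genes were tested, with 11 above 0 and 7 below and a median of 0.012. Cbl is also in this list. The others with the largest ratios in size were Nab2, a co-repressor of early growth response factors, at 0.115 ± 0.036, Ier3 at -0.115 ± 0.26 and the AP-1 subunit Fosl1 at 0.095 ± 0.040 (SD, n = 2 each). Without adjustment, 2, 3 and 0 genes of the cofactor, kinase and feedback lists had p under 0.05 in limma's test, against 6.31% of all genes. When the 15p-in-Cy5 array of replicate 1 was left out, 15 list genes were called, among them all those given a ratio here, in a fit that called 18.0% of all genes.

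**Figure D4:**
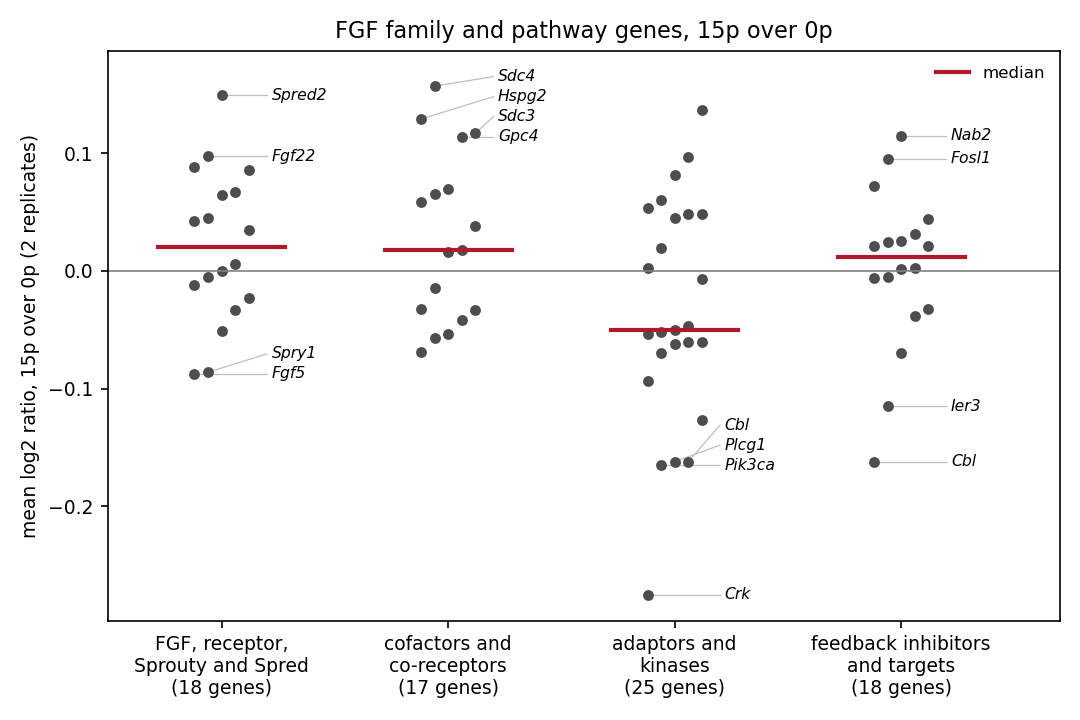
Mean log2 ratio of 15p over 0p over 2 replicates (y axis) for the 18 tested family genes and the tested genes of the 3 pathway lists, 1 point a gene, with a red line at each median. The medians lie between -0.050 for the adaptors and kinases and 0.020 for the family; the most distant point is Crk at -0.275, and 0 points were called.

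The labelled cell type was checked against its markers. Krt5 (mean log2 ratio 0.00042), Krt14 (0.19) and Itga6, the gene of CD49f (0.025), were above background on all arrays in both RNAs. Of the 11 keratinocyte markers listed, 8 were tested, 5 with ratios above 0 and 3 below, and 0 were called. Without adjustment 3 of the 8 had p under 0.05 in limma's test, against 6.31% of all genes. These were Krt14, Sox9 and Krt15 (0.17), the last named after its values were seen. The follicle markers Lgr5 and Lhx2 were above background on no array. Sox9, a follicle regulator named after its values were seen, was lowest at -0.38 ± 0.60 (SD, n = 2), with -1.56 on the 15p-in-Cy5 array of replicate 2. Cd34, whose protein was used for sorting, was above on 0 arrays in 15p RNA and on 1 in 0p RNA. The fibroblast list, which covers the source of Fgf7 and Fgf10 in skin, had 3 of 10 genes tested. Col3a1 (0.088), Twist2 (0.030) and Vim (-0.014) were above background on all 4 arrays in both RNAs and not called. Dcn, Lum, Pdgfra, Pdgfrb and Thy1 were above background on no array. The summed processed signal of the fibroblast list was 880 to 1250 in 15p RNA, against 887 to 1070 in 0p RNA. Col1a1 and the immune gene Ptprc were above background on 3 arrays in each RNA. Of 6 immune genes, Cd3e, Itgam, Csf1r and Fcer1g were above on all 4 arrays in both RNAs, tested and not called. The summed processed signal of the immune list was 2820 to 3970 in 15p RNA, against 3170 to 4080 in 0p RNA. Of 6 endothelial genes, Pecam1 (0.060) and Kdr (-0.0765) were tested and not called, and Cdh5, Tek and Emcn were above background on no array. Of 6 melanocyte genes, Mlana (0.083), Tyr (-0.012) and Mitf (-0.0445) were tested and not called, and Tyrp1 was above background on no array.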

How the data were processed

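Total RNA of 15p and 0p cells was hybridised on 4 two-colour Agilent whole mouse genome arrays, as 2 dye-swapped pairs. The deposited scanner files hold mean and background intensity per spot, extracted with Agilent Feature Extraction 10.7.3.1 per the file headers, and processed intensity that the software had background-subtracted and dye-normalised. The deposited log10 ratio is Cy5 over Cy3 per the file headers; the series value table holds the same ratios, within 0.0045, each column with a median of 0, and served only as an alternative. Other deposited columns are software flags, scored 0 or 1. The labels state the dyes, which set the direction of each ratio.

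Mean intensities were corrected with normexp (offset 50) and loess-normalised within arrays in limma 3.58.1 (R 4.3.3, with data.table at version 1.17.8 for reading), with control spots at weight 0; these and irregular spots (154 to 286 an array) were then left out, and 0 spots were saturated. Probes were kept (21660 of them) when 15p RNA, or 0p RNA, gave a signal well above background on each of the 4 arrays. The brightest kept probe stood for its gene, and these probes of 17376 genes were tested. Pairs were averaged and the 2 replicate values set against 0 in a two-sided test with lmFit and eBayes at an adjusted p of 0.05 (residual degrees of freedom 1, prior 8.88). The SD leaves out differences within a pair. The number of arrays limits the precision. Other genes' symbols came from RefSeq's GRCm38.p6 annotation, which matched 26055 probes; the genes described keep the files' names, which RefSeq shares for all 35.

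Every tested gene of the family is named with its ratio on every array, every other gene with its detection, and of each pathway list up to 4 tested genes with the largest mean ratios in size. The genes and lists were chosen with earlier results of these data known. The pairing comes from the titles, which name each second array a dye swap of the same replicate. Deviations of same-numbered arrays from the mean of their orientation had r = -0.26 across genes. Differences shared by the arrays of a replicate would give a positive value, so this one does not back the pairing. The fit was tested on simulated data. Background, normalisation, filter, probe choice, pairing and each array were varied.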

Additional observations from a re-analysis of the deposited data

How the results depend on the processing

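The count of 0 called family genes held under no background correction, the processed signals, the value table, median centring, no filter, a stricter filter, the mean of kept probes, the replicate block and crossed pairing, and leaving out single arrays gave 0 to 3. For the pathway lists that range was 0 to 15, and for all genes 0 to 3120, with 88 without the 15p-in-Cy5 array of replicate 2; no filter gave 1. The replicate block, fitted as a fixed term beside a dye term on single arrays, called 60 of all genes. It takes the difference between replicates out of the spread, and its prior degrees of freedom were infinite, against 8.88 in the main fit. Without adjustment, 469 genes had p under 0.05 in its limma test, against 1096 in the main fit. The cause of the higher count of called genes was not tested. Pairing each array with the other replicate's, added after seeing the data, also gave 60, as the same contrasts enter. The random replicate block could not be estimated from 4 arrays and was not run.

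In 13 of the 18 genes the sign turned under some setting, all at means that had not passed the test. Fgf18 was 0.031 with no background correction and 0.017 on the processed signals and on the value table. Fgf23 was 0.00020, 0.0031 and 0.0031 under these and 0.030 under median centring. Spred1 was 0.0013 under median centring and 0.060 as a mean of probes, where Fgf1 was -0.0091. With arrays or a replicate left out, Fgf1 ranged from -0.061 to 0.072, Fgf5 from -0.18 to 0.0056, Fgf6 from -0.087 to 0.020, Fgf8 from -0.022 to 0.16, Fgf18 from -0.060 to 0.013, Fgf23 from -0.097 to 0.096, Fgfbp1 from -0.0048 to 0.090, Fgfr1 from -0.14 to 0.13, Fgfr3 from -0.0022 to 0.18, Fgfrl1 from -0.017 to 0.087, Spred1 from -0.059 to 0.035, Spry1 from -0.21 to 0.039 and Spry2 from -0.017 to 0.15. The cause was not tested. Fgf11, Fgf22, Fgfr2, Spred2 and Spred3 kept their sign under every setting run, though the dimmer Fgfr2 probe alone had the opposite sign. By processed signal above the 95th percentile of the negative controls, 24 family genes were above background, against 18 by the software's flag. The share of all genes by that measure is not given here. By it the Fgfr1 kinase probe and 1 Fgfr4 probe were also above on 4 arrays in each RNA, so statements of absence depend on the measure. The prior degrees of freedom, estimated from 1 residual degree, ran from 3.57 on the value table to infinity with the fixed block, with crossed pairs and without the one or the other 15p-in-Cy5 array, so adjusted p-values from those fits are the least certain.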
